A study of Homo sapiens with 6 samples.

Results

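The long arm of chromosome 3 (3q) held 458 protein-coding genes among the 27104 genes measured in OVCAR3 cells, taken as every protein-coding gene of chromosome 3 whose start, in the authors' comparison table, lay above 93000000. OVCAR3 is an established cell line of high-grade serous ovarian carcinoma. The libraries labelled DAB2IP O/E (3 libraries) came from cells transfected with a vector meant to overexpress DAB2IP, a signalling scaffold that also switches off Ras, and the empty vector libraries (3 libraries) came from cells transfected with the vector alone. Both groups were OVCAR3 at passages 20 to 25, and no other agent or allele is given for either. Per the labels each transfection was repeated to give 3 libraries, and nothing says that the cultures were separate, so part of the spread between libraries may be technical. The arm was selected on the measured log2 changes themselves, because its genes between 100 and 160 Mb were lower together in the DAB2IP O/E libraries: 173 of the 198 tested there had values below 0, with a median log2 change of −0.23. The difference between the groups is therefore given for these genes as a description, with no test of the arm or of its parts, and nothing is supported with it.

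Chromosome 3q carries genes of DNA replication, membrane traffic and phosphoinositide signalling beside transcription factors of epithelial and stem cells. Extra copies of its distal band 3q26 are among the most frequent copy-number gains of serous ovarian carcinoma. MECOM, a zinc finger transcription factor, PRKCI, an atypical protein kinase C, PIK3CA, the catalytic subunit p110-alpha of phosphoinositide 3-kinase, and SOX2, a stem cell transcription factor, are the best known genes of that gain. Gene copy number was not measured in these samples.

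Each library held between 20445867 and 35434533 whole reads, recovered from the FPKM (fragments per kilobase of transcript, scaled to library depth). DAB2IP went against the labels, with 5.74, 5.02 and 5.74 FPKM in the DAB2IP O/E libraries and 7.49, 7.76 and 8.01 FPKM in the empty vector libraries. Each difference reported here is thus between libraries labelled DAB2IP O/E, with the lower DAB2IP level, and empty vector libraries. Whether the labels are exchanged, or whether transcripts of the vector were counted, was not tested, and exchanged labels would turn every direction given here. The 11 markers listed for serous ovarian cells were all present, and summed to 1174 to 1230 FPKM in the DAB2IP O/E libraries and 905 to 960 FPKM in the empty vector libraries. The keratins KRT8 and KRT18 made up most of this difference, while WT1, SOX17 and FOLR1 were lower in every DAB2IP O/E library than in every empty vector library. The part of these differences in the results on 3q was not tested. PAX8, the Müllerian transcription factor, averaged 70.7 FPKM over the 6 libraries, and MUC16, which encodes the antigen CA125, was the lowest at 3.25 FPKM. The extraction protocol speaks of adipocytes. The 5 adipocyte markers listed in the files summed to 0.495 to 0.602 FPKM in the DAB2IP O/E libraries and 0.436 to 0.521 FPKM in the empty vector libraries.

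The genes at the ends of the shifted stretch and SMC4, a strongly lowered and abundant transcript inside it, are shown by their promoters, from 250 bases before to 50 bases after the start of transcription. RUVBL1 and EEFSEC overlap at their starts and are the first genes of the stretch, SMC4 had the largest fall inside it on the log2(FPKM + 1) scale, MECOM is the last gene inside and ACTRT3 and MYNN are the first outside. The sequences are those of RefSeq (GRCh38.p14), printed 5′ to 3′ along each gene's own strand. The windows are chr3:128153865-128154164 (minus strand) for RUVBL1, chr3:128153231-128153530 (plus strand) for EEFSEC, chr3:160399400-160399699 (plus strand) for SMC4, chr3:169663663-169663962 (minus strand) for MECOM, chr3:169769512-169769811 (minus strand) for ACTRT3 and chr3:169773146-169773445 (plus strand) for MYNN. Capitals mark every match, on either strand, to the core letters CCAAT (the factor NF-Y), GGGCGG (SP and KLF factors), TATAAA (the TATA box), CCGGAAG (ETS factors), TGACGTCA (the cyclic AMP response element), GCATGCGC (the factor NRF1) or CACGTG (the E-box).
RUVBL1: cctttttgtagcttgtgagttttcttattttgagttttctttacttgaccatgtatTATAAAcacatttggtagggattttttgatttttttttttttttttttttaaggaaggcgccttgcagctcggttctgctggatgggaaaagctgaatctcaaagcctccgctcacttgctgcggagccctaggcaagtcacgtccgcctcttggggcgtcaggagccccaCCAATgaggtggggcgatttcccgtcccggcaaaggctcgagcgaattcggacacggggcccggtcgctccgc
EEFSEC: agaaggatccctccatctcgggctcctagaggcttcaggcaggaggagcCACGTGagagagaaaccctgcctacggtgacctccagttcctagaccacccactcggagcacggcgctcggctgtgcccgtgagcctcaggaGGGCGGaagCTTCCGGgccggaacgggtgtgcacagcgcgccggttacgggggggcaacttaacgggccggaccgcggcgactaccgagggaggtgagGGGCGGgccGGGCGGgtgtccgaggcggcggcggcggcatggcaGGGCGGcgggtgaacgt
SMC4: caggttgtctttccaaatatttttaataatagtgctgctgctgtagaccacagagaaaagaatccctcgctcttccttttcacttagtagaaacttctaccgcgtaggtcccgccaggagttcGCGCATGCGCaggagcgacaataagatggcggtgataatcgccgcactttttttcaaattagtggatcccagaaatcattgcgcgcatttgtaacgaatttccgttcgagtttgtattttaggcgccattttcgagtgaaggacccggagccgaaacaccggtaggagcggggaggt
MECOM: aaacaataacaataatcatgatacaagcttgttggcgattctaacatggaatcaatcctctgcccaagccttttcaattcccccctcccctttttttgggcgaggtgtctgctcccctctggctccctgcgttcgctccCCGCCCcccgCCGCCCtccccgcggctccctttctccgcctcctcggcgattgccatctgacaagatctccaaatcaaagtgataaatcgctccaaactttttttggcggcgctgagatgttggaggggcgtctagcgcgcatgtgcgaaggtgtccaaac
ACTRT3: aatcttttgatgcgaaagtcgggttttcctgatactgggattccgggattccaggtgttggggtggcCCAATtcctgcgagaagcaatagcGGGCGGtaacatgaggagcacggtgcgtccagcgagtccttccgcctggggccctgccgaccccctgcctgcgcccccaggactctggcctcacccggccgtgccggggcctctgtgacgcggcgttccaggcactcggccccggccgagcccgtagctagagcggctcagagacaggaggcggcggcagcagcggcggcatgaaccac
MYNN: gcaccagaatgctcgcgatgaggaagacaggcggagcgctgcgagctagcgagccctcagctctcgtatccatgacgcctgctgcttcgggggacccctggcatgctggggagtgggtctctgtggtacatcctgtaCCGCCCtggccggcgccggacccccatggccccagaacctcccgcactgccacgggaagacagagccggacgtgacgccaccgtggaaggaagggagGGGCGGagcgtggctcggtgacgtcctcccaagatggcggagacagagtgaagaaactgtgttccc
No motif is shared by all 6 promoters. The GGGCGG motif was in both promoters just outside the stretch, as well as in those of MECOM and EEFSEC inside it. RefSeq promoters were found for 280 of the 332 genes tested on 3q. GGGCGG was in 67.4% of those inside the central stretch defined in the next paragraph, in 65.9% of those proximal to it and in 73.4% of those distal to it, against 44.6% of all 27305 promoters of the same length. In the same order, central, proximal and distal, CCGGAAG was in 20.0%, 20.9% and 13.8% of the promoters, against 10.7% of all promoters, and CCAAT in 37.9%, 37.4% and 37.2%, against 35.7%. TGACGTCA was in 6.32%, 5.49% and 3.19%, against 1.98% of all promoters, CACGTG in 13.7%, 7.69% and 7.45%, against 7.43%, TATAAA in 5.26%, 7.69% and 10.6%, against 12%, and GCATGCGC in 4.21%, 7.69% and 5.32%, against 3.27%. The 3q sets hold only transcribed genes, while the set of all promoters also holds silent ones.

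Genes of a central stretch of the arm were lower together in the DAB2IP O/E libraries, those nearer the centromere less so, and those near the end of the arm lay around 0. Of the 458 genes, 332 reached a mean level of 1 FPKM and were fitted, and 126 lay under that filter. A search for the contiguous run of genes that best separates the arm into 3 levels placed a central run from RUVBL1 to MECOM, from 128064778 to 169663618 of chromosome 3 in GRCh38. The log2 change, here always the difference in log2(FPKM + 1) between DAB2IP O/E and empty vector libraries, had a median of −0.27 over the 113 tested genes of this run. The interquartile range was −0.38 to −0.16. It was −0.18 over the 108 tested genes proximal to the run (nearer the centromere), and −0.03 over the 111 tested genes distal to it (towards the end of the arm). In bulk RNA, fewer cells of one kind and less RNA per cell cannot be told apart. The median over all protein-coding genes tested was −0.00057, and over the 320 tested protein-coding genes of the short arm it was −0.015. Values below 0, which 50.2% of all tested protein-coding genes had, made up 103 of the 113 genes of the central run, 90 of the 108 proximal and 64 of the 111 distal genes.

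**Figure D1:**
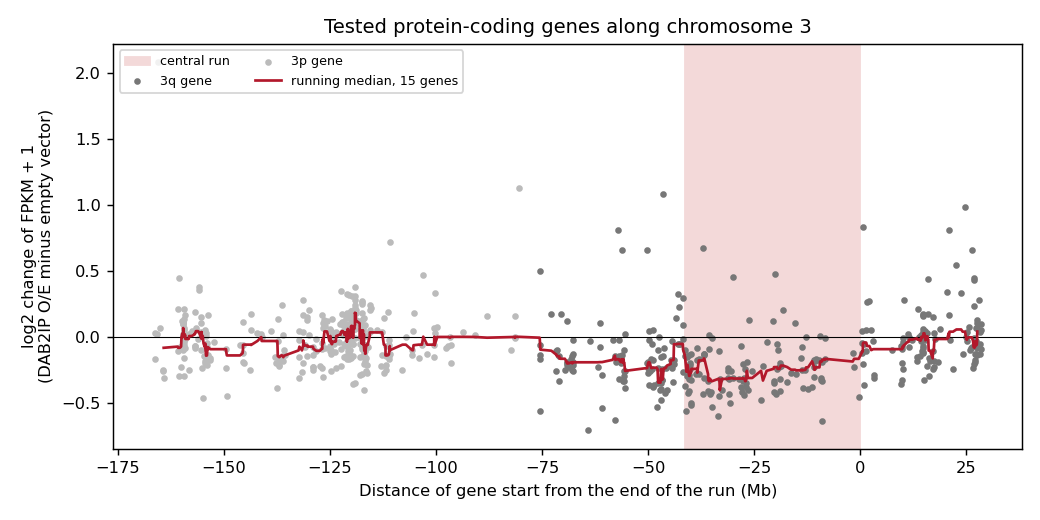
Log2 change (vertical axis, DAB2IP O/E minus empty vector, on log2(FPKM + 1)) of each tested protein-coding gene of chromosome 3, plotted by the distance of its start in Mb from the distal end of the central run, with a running median over 15 genes. The running median moves around 0 on the short arm, reaches −0.40 inside the shaded central run and returns towards 0 beyond its distal end.

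At the distal end, MECOM and ACTRT3 are neighbours among the genes tested. MECOM was at 11.6, 13.2 and 12.6 FPKM in the DAB2IP O/E libraries and at 16.4, 18.3 and 17.9 FPKM in the empty vector libraries, on 2888 to 4612 reads. Its groups did not overlap, and its log2 change was −0.46 (SE 0.06). ACTRT3, an actin-related protein, was at 2.25, 3.09 and 2.36 FPKM in the DAB2IP O/E libraries and at 2.32, 2.49 and 2.48 FPKM in the empty vector libraries, so its groups overlapped. Its values rest on only 93 to 179 reads per library. MYNN, a zinc finger protein, was at 8.22, 10.3 and 9.02 FPKM in the DAB2IP O/E libraries and at 8.92, 9.70 and 9.78 FPKM in the empty vector libraries, again with overlap. Over the 10 tested genes before the end, the median log2 change was −0.27 with all 10 below 0, and over the 10 after it the median was −0.05 with 6 below 0. The search also placed this end on these values, so a step here is built in and does not measure how sharp the end is.

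Between KPNA4, an importin at 160494995, and MECOM the run holds few tested genes. B3GALNT1, a glycosyltransferase, averaged 9.34 ± 0.97 FPKM in DAB2IP O/E and 9.40 ± 0.86 FPKM in empty vector libraries (SD, n = 3 each). NMD3, a ribosome export adaptor, averaged 37.1 ± 4.0 FPKM in DAB2IP O/E and 41.6 ± 1.9 FPKM in empty vector libraries, and PDCD10, a scaffold of the STRIPAK complex, 18.1 ± 1.4 FPKM in DAB2IP O/E and 19.7 ± 0.87 FPKM in empty vector libraries. GOLIM4, a Golgi membrane protein, averaged 7.76 ± 0.30 FPKM in DAB2IP O/E and 9.28 ± 0.61 FPKM in empty vector libraries (SD, n = 3 each). The groups overlapped for B3GALNT1, NMD3 and PDCD10 but not for GOLIM4. The log2 change of GOLIM4 was −0.23 with and without a replicate block, and its call was lost with the block, with no filter and without any 1 library except the third empty vector library. With a filter of 5 FPKM, with none, and with recovered reads in limma-voom, the search ended the run at KPNA4 instead of MECOM. With all gene types it ended at 160.43 Mb, just before KPNA4.

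The proximal end was less well placed. Starts at RUVBL1, GATA2 and RAB7A separated the arm equally well. Over the 10 tested genes before RUVBL1 the median log2 change was −0.03, and over the 10 from RUVBL1 on it was −0.31. The search placed this end on the same log2 changes, so a step between these windows is built in. Over all 108 tested genes proximal to the run the median was −0.18. RUVBL1, an ATPase of chromatin remodelling complexes, was at 28.9, 30.8 and 29.6 FPKM in the DAB2IP O/E libraries, all below the empty vector libraries at 40.3, 38.5 and 37.9 FPKM. EEFSEC, the elongation factor for selenocysteine, starts beside it on the other strand and was at 8.09, 7.61 and 7.87 FPKM in the DAB2IP O/E libraries and at 9.02, 7.69 and 8.70 FPKM in the empty vector libraries, with overlap. RUVBL1 shares 10.4% and EEFSEC 15.3% of exon bases with other genes, and whether counting used the strand is not given in the sources used here. PODXL2, a sialomucin just before the start, had a log2 change of 0.30, with the same change but no call with a replicate block, and was at 38.6, 33.5 and 35.5 FPKM in the DAB2IP O/E libraries and 26.7, 29.2 and 31.1 FPKM in the empty vector libraries. The call was also lost without the first or the third DAB2IP O/E library, without the first or the second empty vector library and with no filter. Its neighbour ABTB1 overlapped between the groups, at 3.05 to 3.69 FPKM in DAB2IP O/E and 2.81 to 3.43 FPKM in empty vector libraries. SEC61A1, a subunit of the protein-conducting channel of the endoplasmic reticulum, had 81.9 to 85.4 FPKM in DAB2IP O/E and 90.2 to 94.0 FPKM in empty vector libraries, with no overlap.

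Searched over the whole chromosome instead of the arm, the run began at CRYBG3, at 97.82 Mb, and again ended at MECOM. It then held 214 tested genes with a median log2 change of −0.23, against −0.02 before it and −0.03 after it. By 10 Mb bins the median was −0.13 from 90 to 100 Mb, −0.20 from 100 to 110 Mb, −0.19 from 110 to 120 Mb and −0.22 from 120 to 130 Mb. It was lowest from 130 to 150 Mb, at −0.28 and −0.31 in the successive bins, then −0.23 from 150 to 160 Mb, −0.19 from 160 to 170 Mb and −0.07 from 170 to 180 Mb. In the remaining bins it was −0.02 and −0.01. At the threshold of the arm itself, the tested members PROS1 and STX19, just inside it, had log2 changes of −0.06 and 0.50. The last tested genes left out, ZNF654, C3orf38 and EPHA3, had 0.0017, 0.16 and 1.13.

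The 3 libraries labelled DAB2IP O/E carried the shift to different degrees. Against the empty vector mean, the median log2 difference over the central run was −0.31 in the first DAB2IP O/E library, −0.21 in the second and −0.27 in the third. The highest of the 3 was the second library for 79 of the 113 genes, the first for 20 and the third for 14. As deviations from their own group mean, less the median over all genes, the DAB2IP O/E libraries stood at −0.050, 0.046 and −0.0011, and the empty vector libraries at 0.0021, 0.0024 and −0.0057. The empty vector libraries were thus closer to each other over the run than the DAB2IP O/E libraries were. The distal end also differed by library: searched alone against the empty vector mean, the run ended at ACTL6A (179.6 Mb) in the first DAB2IP O/E library, at KPNA4 (160.5 Mb) in the second and at MECOM (169.1 Mb) in the third. It began at 134.07 Mb in the first, 113.29 Mb in the second and 128.06 Mb in the third. Between 170 and 180 Mb the median difference was −0.21 in the first library, 0.03 in the second and −0.05 in the third.

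**Figure D2:**
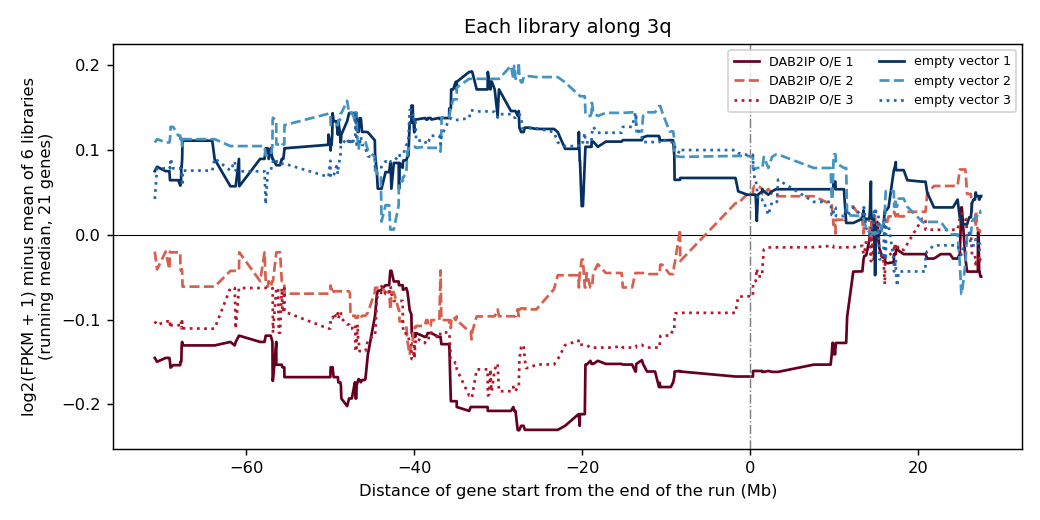
Deviation of each library's log2(FPKM + 1) from the mean of the 6 libraries (vertical axis, running median over 21 tested genes) along 3q, by distance in Mb from the distal end of the central run (dash-dot line). The 3 DAB2IP O/E lines run under the 3 empty vector lines through most of the central run, the second DAB2IP O/E library nearest to 0 over most of it, and the lines meet beyond the end, the first DAB2IP O/E library last.

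Summed over all 164 protein-coding genes of the central run, expression was 2998, 3223 and 3090.5 FPKM in the DAB2IP O/E libraries and 3759, 3787 and 3747 FPKM in the empty vector libraries. The means were 3104 ± 113 FPKM in DAB2IP O/E and 3765 ± 20.5 FPKM in empty vector libraries (SD, n = 3 each). Distal to the run the sums were 2316 ± 61.8 FPKM in DAB2IP O/E and 2395 ± 28.9 FPKM in empty vector libraries, and proximal to it 2325 ± 65.1 FPKM in DAB2IP O/E and 2580 ± 22.0 FPKM in empty vector libraries. By gene, the ratio of mean FPKM, DAB2IP O/E over empty vector, had a median of 0.816 in the central run, with an interquartile range of 0.762 to 0.886. It lay between 0.7 and 0.95 for 91 of the 113 genes, under 0.5 for 1 gene and over 1.5 for 1 gene. The median ratio was 0.865 proximal to the run, 0.979 distal to it and 1.002 over the 10959 tested protein-coding genes elsewhere.

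**Figure D3:**
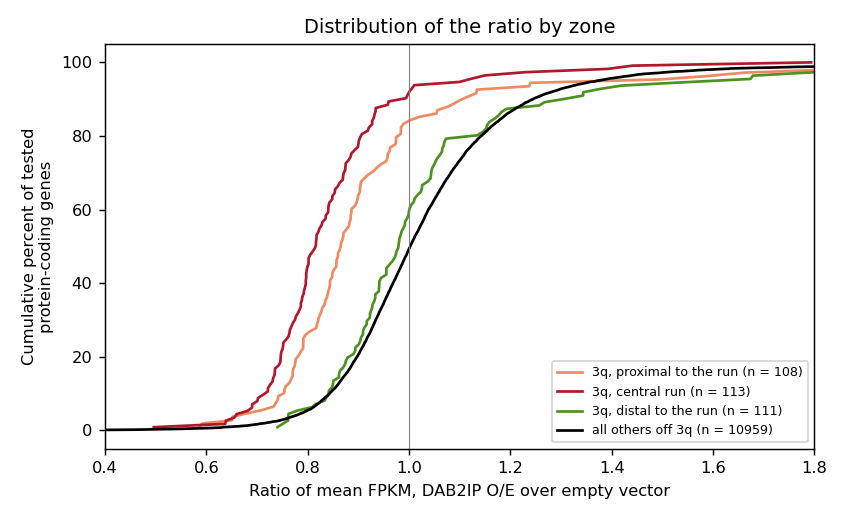
Cumulative percent of tested protein-coding genes (vertical axis) by the ratio of mean FPKM, DAB2IP O/E over empty vector (horizontal axis), for the genes proximal to, inside and distal to the central run and for all others off 3q. The curve of the central run crosses 50% at a ratio of 0.816 and that of the distal genes at 0.979; ratios beyond the axis are not drawn.

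Single-gene calls on the arm were counted with limma across all genes (Benjamini-Hochberg adjusted p under 0.05). Of the 332 tested genes, 127 fell and 22 rose, and 183 did not pass. Among all protein-coding genes tested, 9.73% fell and 10.2% rose, 19.9% in all. In the central run 71 fell, 3 rose and 39 did not pass, proximal to it 43 fell and 7 rose, and distal to it 13 fell and 12 rose. The 3 DAB2IP O/E libraries lay under all 3 empty vector libraries for 183 of the tested genes and above them for 37, where 22.9% and 21% of all tested protein-coding genes did so. The rule chose the arm on this contrast, so nothing is read from these shares. The counts depend on single libraries: the total of 149 was 93 without the first DAB2IP O/E library, 73 without the third and 85 without the second empty vector library. In the authors' deposited table, with its sign turned, 163 members were lower and 30 higher in DAB2IP O/E at an adjusted p under 0.05, of 407 with an adjusted p. There 9.26% of all genes were lower and 9.73% higher.

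The most abundant transcripts of the central run were mostly lower in the DAB2IP O/E libraries. CP, the copper-binding ferroxidase ceruloplasmin, was at 299, 346 and 325 FPKM in the DAB2IP O/E libraries and at 395, 416 and 407 FPKM in the empty vector libraries. CNBP, a nucleic acid-binding zinc knuckle protein, was at 271, 307 and 294 FPKM in the DAB2IP O/E libraries and at 339, 365 and 362 FPKM in the empty vector libraries. RAB7A, the small GTPase of late endosomes, averaged 143 ± 6.3 FPKM in DAB2IP O/E and 176 ± 5.5 FPKM in empty vector libraries (SD, n = 3 each). In these 3 genes every DAB2IP O/E library lay under every empty vector library. AMOTL2, an angiomotin family scaffold of cell junctions, averaged 110 ± 2.2 FPKM in DAB2IP O/E and 148 ± 2.7 FPKM in empty vector libraries, a log2 change of −0.42 (SE 0.04). PFN2, the actin regulator profilin 2, overlapped between groups, at 80.6 to 90.1 FPKM in DAB2IP O/E and 85.6 to 94.4 FPKM in empty vector libraries.

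**Figure D4:**
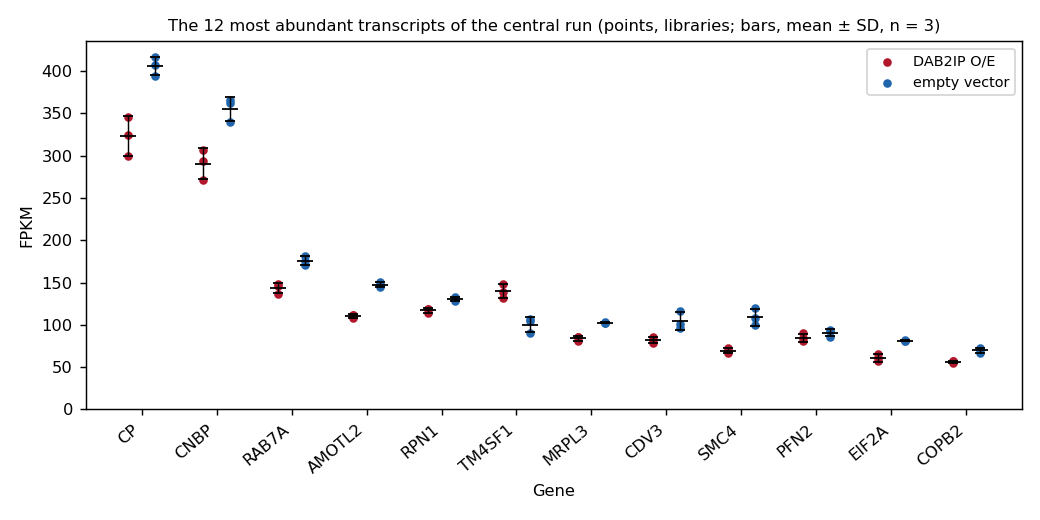
FPKM (vertical axis, from 0) of the 12 most abundant transcripts of the central run in the 3 DAB2IP O/E libraries (red, left of each pair) and the 3 empty vector libraries (blue, right), with mean and SD (n = 3). CP and CNBP are the highest and are lower in DAB2IP O/E, PFN2 overlaps between the groups, and TM4SF1 is the only 1 of the 12 with higher values in DAB2IP O/E.

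Genes of DNA replication, repair and cell division on the arm numbered 32 tested, of which 19 fell, 0 rose and 13 did not pass, with a median log2 change of −0.25. The count that fell was 12 without the first or the third DAB2IP O/E library or the second empty vector library. SMC4, a core subunit of condensin, which compacts mitotic chromosomes, had the largest fall of the central run on the log2(FPKM + 1) scale. By the ratio of mean FPKM, DAB2IP O/E over empty vector, it was at 0.637, and the much weaker GATA2 was lower at 0.496. It was at 66.7, 72.0 and 69.5 FPKM in the DAB2IP O/E libraries and at 120, 107 and 99.8 FPKM in the empty vector libraries, on 14801 to 23929 reads, and other genes overlap 25.6% of its exon bases. TOPBP1, an activator of the checkpoint kinase ATR, was at 35.0, 38.0 and 36.5 FPKM in the DAB2IP O/E libraries and at 51.0, 48.3 and 47.4 FPKM in the empty vector libraries. ATR itself, the kinase that senses stalled replication forks, averaged 10.3 ± 0.15 FPKM in DAB2IP O/E and 13.5 ± 0.32 FPKM in empty vector libraries (SD, n = 3 each). MBD4, a DNA glycosylase that acts on mismatched bases at CpG sites, had a log2 change of −0.52, and CEP63, a centrosome protein, −0.53. Proximal to the run, POLQ, the polymerase of microhomology-mediated end joining, had −0.53. In the central run 13 of 19 members of the list fell, proximal to it 3 of 5 and distal to it 3 of 8. Of all tested genes 62.8% fell in the run, 39.8% proximal to it and 11.7% distal to it. Over the arm 38.3% fell and 6.63% rose. The counts of this and the later lists stand beside these shares, and whether any list differed from them was not tested. The list of replication and repair genes also holds members of other functions, such as the Notch target HES1, the mRNA exonuclease XRN1 and the RNA polymerase subunit POLR2H.

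Genes of the secretory pathway and membrane traffic numbered 32 tested, of which 18 fell, 1 rose and 13 did not pass, with a median log2 change of −0.20. Only 8 fell without the third DAB2IP O/E library or without the second empty vector library, and 10 without the first DAB2IP O/E library. COPB2, a subunit of the COPI coat of Golgi vesicles, was at 56.7, 57.5 and 54.8 FPKM in the DAB2IP O/E libraries and at 72.7, 70.2 and 67.0 FPKM in the empty vector libraries. COPG1, another COPI subunit, averaged 58.0 ± 0.61 FPKM in DAB2IP O/E and 66.7 ± 0.31 FPKM in empty vector libraries (SD, n = 3 each). PLOD2, the lysyl hydroxylase of collagen telopeptides, had a log2 change of −0.48 and DNAJC13, an endosomal co-chaperone, −0.43. RPN1, a subunit of the oligosaccharyltransferase that glycosylates nascent proteins, was at 114 to 119 FPKM in DAB2IP O/E and 128 to 133 FPKM in empty vector libraries. It did not pass as fitted here, but did with a filter of 5 FPKM, with library medians set equal and with recovered reads in limma-voom. The member that rose was STX19, an epithelial syntaxin near the centromere, at 1.44 FPKM in DAB2IP O/E and 0.728 FPKM in empty vector libraries on average.

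Genes of translation and the ribosome numbered 23 tested, of which 5 fell, 0 rose and 18 did not pass. The 5 were all among the 8 of the central run, where the median log2 change was −0.28. Without the third DAB2IP O/E library 2 fell, and without the second empty vector library 3 fell. EIF2A, a non-canonical initiation factor, was at 56.9, 65.8 and 60.2 FPKM in the DAB2IP O/E libraries and at 80.4, 82.3 and 81.1 FPKM in the empty vector libraries. MRPL3, a protein of the mitochondrial ribosome, was at 80.8, 85.9 and 85.5 FPKM in the DAB2IP O/E libraries and at 102, 103 and 102 FPKM in the empty vector libraries. Distal to the run, EIF4G1, the scaffold of the cap-binding complex, averaged a log2 change of −0.12, the helicase EIF4A2 0.03 and the ribosomal protein gene RPL35A 0.10. RPL24, proximal to the run, had −0.02. Pseudogenes named after RPL24 (3 tested) and RPL35A (4 tested) may hold some of the reads of these genes.

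Of 22 tested genes listed as mitochondrial proteins, 9 fell, 3 rose and 10 did not pass. Without the third DAB2IP O/E library 3 fell and 0 rose, without the second empty vector library 4 fell and 1 rose, and without the first DAB2IP O/E library 5 fell and 0 rose. TIMMDC1, an assembly factor of respiratory complex I, was at 73.5, 77.4 and 77.6 FPKM in the DAB2IP O/E libraries and at 87.6, 92.7 and 89.2 FPKM in the empty vector libraries, with other genes overlapping 29.2% of its exon bases. ACAD9, another assembly factor of complex I, had a log2 change of −0.43, and COX17, a copper chaperone of cytochrome oxidase, −0.37. MCCC1, a subunit of methylcrotonyl-CoA carboxylase, and BDH1, a ketone body dehydrogenase, both distal to the run, had 0.21 and 0.28. ACPP, the third riser of the list, encodes prostatic acid phosphatase, which is not a mitochondrial protein. It was at 4.48, 5.35 and 4.89 FPKM in the DAB2IP O/E libraries and at 1.90, 3.25 and 3.05 FPKM in the empty vector libraries.

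Of 17 tested kinases, phosphatases and phosphoinositide 3-kinase subunits, 7 fell, 1 rose and 9 did not pass, and 5 fell without the first or the third DAB2IP O/E library. PIK3CB, the catalytic subunit p110-beta, was at 12.9, 13.6 and 12.7 FPKM in the DAB2IP O/E libraries and at 20.1, 18.8 and 17.9 FPKM in the empty vector libraries. PIK3R4, the regulatory subunit of the class III kinase, was at 20.8, 21 and 20.7 FPKM in the DAB2IP O/E libraries and at 25.7, 24.7 and 26 FPKM in the empty vector libraries. The groups did not overlap for either. RYK, a WNT receptor, had a log2 change of −0.43 (SE 0.05), and PPP2R3A, a regulatory subunit of phosphatase 2A, −0.60 (SE 0.07). PPP2R3A was at 9.65, 10.6 and 9.71 FPKM in the DAB2IP O/E libraries and at 16.9, 15.4 and 14.6 FPKM in the empty vector libraries.

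Ubiquitin and PARP enzymes had 21 tested members, of which 12 fell, 1 rose and 8 did not pass. Without the third DAB2IP O/E library 5 fell, and without the first DAB2IP O/E library or the second empty vector library 7 fell. DTX3L, a ubiquitin ligase that pairs with PARP9, was at 36.6, 39.7 and 38.3 FPKM in the DAB2IP O/E libraries and at 57.9, 51.7 and 51.6 FPKM in the empty vector libraries. PARP9 and PARP14, its neighbours proximal to the run, had log2 changes of −0.35 and −0.33. HLTF, a helicase-like ubiquitin ligase of replication fork remodelling, was at 47.3, 51.0 and 47.3 FPKM in the DAB2IP O/E libraries and at 64.6, 62.9 and 59.1 FPKM in the empty vector libraries. USP13, a deubiquitinase distal to the run, averaged 5.06 ± 0.28 FPKM in DAB2IP O/E and 3.99 ± 0.13 FPKM in empty vector libraries (SD, n = 3 each).

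Transcription factors and co-regulators had 23 tested members, of which 10 fell, 0 rose and 13 did not pass. In the central run 7 of 8 fell, with a median log2 change of −0.41, and distal to it 1 of 11 fell, with a median of −0.07. Of all tested genes, 62.8% fell in the run and 11.7% distal to it. Over the list 5 fell without the third DAB2IP O/E library and 6 without the second empty vector library. GATA2, a haematopoietic and endothelial transcription factor, was close to the filter, at 0.929, 0.815 and 0.917 FPKM in the DAB2IP O/E libraries and 1.79, 1.83 and 1.75 FPKM in the empty vector libraries, on 103 to 221 reads. It was the 1 gene of the run with a ratio under 0.5. WWTR1, the YAP paralogue TAZ, was at 14, 16.2 and 15.6 FPKM in the DAB2IP O/E libraries and at 20.5, 21.3 and 20.8 FPKM in the empty vector libraries. TFDP2, a partner of E2F factors, and ZBTB38, a methyl-CpG-binding zinc finger protein, had log2 changes of −0.44 and −0.38. HES1, a repressor induced by Notch, varied most among libraries, at 10.3, 24.7 and 28.6 FPKM in the DAB2IP O/E libraries and 7.12, 11.6 and 9.89 FPKM in the empty vector libraries, and its groups overlapped. The log2 change of HES1 was 0.98 on all 6 libraries and did not pass. With a replicate block it was also 0.98 but was called, and without the first DAB2IP O/E library HES1 rose with a log2 change of 1.41.

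Cell surface and adhesion genes moved both ways, with 4 of 20 tested lower, 5 higher and 11 not passing. Their median log2 change was −0.03. The counts ran from 3 to 5 lower and 3 to 6 higher with each library left out. ALCAM, the immunoglobulin-type adhesion molecule CD166, had the largest fall of the arm on the log2(FPKM + 1) scale, at 10.9, 11.9 and 11 FPKM in the DAB2IP O/E libraries and 17.8, 20.3 and 19.0 FPKM in the empty vector libraries. CD200, an immunoregulatory surface glycoprotein, was at 13.2, 14.5 and 14.4 FPKM in the DAB2IP O/E libraries and at 6.63, 8.35 and 7.78 FPKM in the empty vector libraries. By the ratio of mean FPKM, ALCAM was at 0.591, above GATA2 at 0.496 and PHLDB2 at 0.586. ALCAM and CD200 lie proximal to the run, as does BOC, a Hedgehog co-receptor, with a log2 change of 0.66. CD47, the inhibitory signal to phagocytes and the most abundant member of the list, was at 219 to 247 FPKM in DAB2IP O/E and 210 to 226 FPKM in empty vector libraries, with overlap. TM4SF1, a tetraspanin-like protein inside the run, was at 132, 149 and 138 FPKM in the DAB2IP O/E libraries and at 89.8, 107 and 104 FPKM in the empty vector libraries.

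Among the tested genes of the central run, values above 0 were few. Of the 113 tested, 10 lay above 0 and 3 rose, ACPP and TM4SF1 among them. Only 1 riser of the run was left without the first, the second or the third DAB2IP O/E library. The authors' deposited table also covers weaker genes. There, with its sign turned, 82 genes of the run were lower and 8 higher at an adjusted p under 0.05, of 149. CPNE4, PPM1L and SPTSSB, under the filter of 1 FPKM here, were among those 8. The largest rise among the tested genes of the whole arm was that of SEMA5B, a semaphorin proximal to the run. It was at 3.3, 3.46 and 3.43 FPKM in the DAB2IP O/E libraries and 0.837, 1.33 and 1.08 FPKM in the empty vector libraries. Among the other large rises, GPR160, an orphan receptor just beyond the distal end, was at 10.0, 11.7 and 10.8 FPKM in the DAB2IP O/E libraries and 4.83, 6.25 and 5.90 FPKM in the empty vector libraries. CLDN16, a claudin of paracellular ion transport, was at 17, 15.9 and 13.9 FPKM in the DAB2IP O/E libraries and 12, 7.40 and 6.61 FPKM in the empty vector libraries. In these 3 genes the groups did not overlap. Among the large falls besides ALCAM, SMC4, PPP2R3A and GATA2 was PHLDB2, a cortical microtubule anchor, with a log2 change of −0.63.

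The genes of the 3q26 gain lay almost entirely beyond the distal end of the run. Of the 34 genes listed for it, 28 were tested members, 3 of them inside the run and 25 distal to it. Of the 28, 8 fell, 3 rose and 17 did not pass, with a median log2 change of −0.09. Of them 3 fell without the third DAB2IP O/E library, 4 without the second empty vector library and 5 without the first DAB2IP O/E library. Of the 25 distal members 6 fell, 3 rose and 20 lay below 0, with a median of −0.07. Of all 111 tested distal genes 11.7% fell, 10.8% rose and 64 lay below 0, with a median of −0.03. PRKCI was at 74.0, 82.9 and 78.9 FPKM in the DAB2IP O/E libraries and at 83.7, 81.7 and 78.4 FPKM in the empty vector libraries, and the groups overlapped. SOX2 was at 29, 30.3 and 29.8 FPKM in the DAB2IP O/E libraries and at 28.7, 32.2 and 29.5 FPKM in the empty vector libraries, again with overlap. PIK3CA differed from both, at 7.95, 8.51 and 8.26 FPKM in the DAB2IP O/E libraries and at 11.7, 10.8 and 9.91 FPKM in the empty vector libraries, with no overlap. ECT2, the exchange factor of cytokinesis, was at 35.1, 38.8 and 35.9 FPKM in the DAB2IP O/E libraries and at 43.2, 46.7 and 44.6 FPKM in the empty vector libraries. SKIL, a repressor of SMAD signalling, had a log2 change of −0.37 and TNIK, a kinase of WNT target activation, 0.26.

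**Figure D5:**
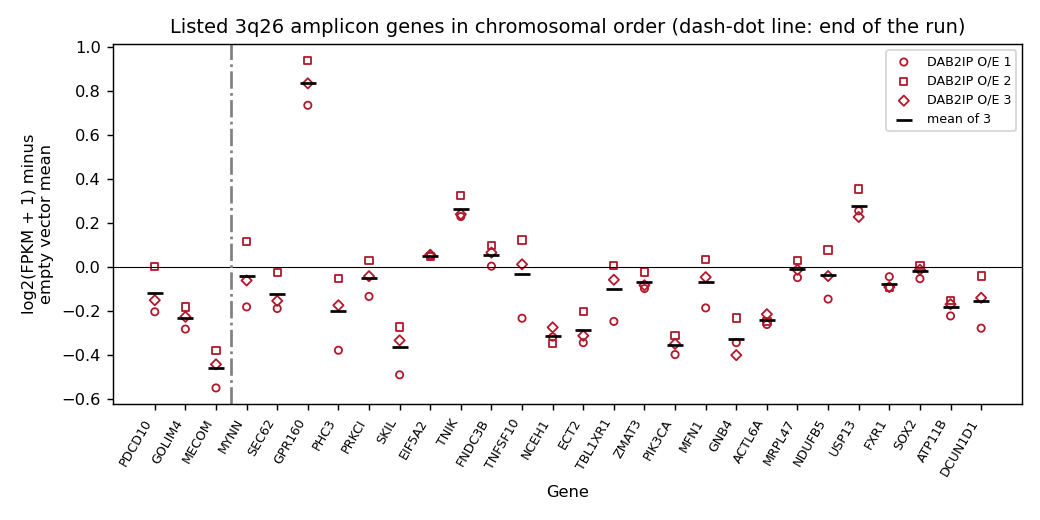
Log2(FPKM + 1) of each DAB2IP O/E library minus the empty vector mean (vertical axis) for the 28 tested genes listed for the 3q26 gain, in chromosomal order, with the mean of the 3 libraries as a bar. MECOM, last before the dash-dot line at the end of the run, has a mean of −0.46, while PRKCI and SOX2 beyond it lie at −0.05 and −0.02 and GPR160 at 0.84.

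Members under the filter of 1 FPKM numbered 39 proximal to the run, 51 in it and 36 distal to it. Their median was 0.108 FPKM, and none entered the fit. Genes of other types in the same stretch were also measured. Of the 76 processed pseudogenes placed in the central run, 29 were tested, with a median log2 change of 0.02, 0 lower and 2 higher. The median over all tested processed pseudogenes was 0.07. The 8 tested antisense genes of the run had a median of −0.23, against −0.10 over all tested antisense genes, and the 6 tested intergenic noncoding RNAs −0.25, against −0.06. Distal to the run, the 5 tested antisense genes had −0.13. With every type but protein-coding pooled, the median was −0.02 over the 52 tested genes of the run. It was 0.03 over the 26 proximal and −0.10 over the 43 distal genes. The pooled genes were thus lowest distal to the run, unlike the protein-coding genes. Read sharing between overlapping or near-identical genes was not resolved. In the central run, 18 of 104 protein-coding genes with an annotated overlap value shared over 20% of their exon bases with another gene, with a median log2 change of −0.21, and the 86 others had −0.28.

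The rule did not use the level of the genes. Averaged over the 6 libraries, the median level was 15.4 FPKM in the central run (interquartile range 7.82 to 29), 11.8 FPKM proximal to it and 11.9 FPKM distal to it. The median over the tested protein-coding genes off 3q was 6.96 FPKM, with an interquartile range of 3.22 to 15.9. Exon length had medians of 5324, 5610 and 5871 bases in the central, proximal and distal genes with an annotation, and GC content of the longest transcript 42.1%, 41.4% and 44.4%. In all 3 zones the log2 change was lower in more abundant genes, with a Spearman's rho of −0.31 across the 113 genes of the run, −0.28 across the 108 proximal and −0.35 across the 111 distal genes. It was −0.12 across the 10959 genes off 3q. Between 7.82 and 29 FPKM, the median log2 change was −0.30 over 57 genes of the run and −0.01 over 3701 protein-coding genes off 3q. The part of the level in the shift was not tested. With exon length the rho was −0.33 in the run, −0.19 proximal to it and −0.19 distal to it, and with GC content 0.29, 0.27 and 0.34. These are correlations across genes that share libraries and are not replicates. The log2(FPKM + 1) scale draws changes of weak genes towards 0. In the run, where 103 of the 113 genes lay below 0, part of the rho with level may thus come from the scale, which was not tested.

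Other stretches of the genome were also shifted in these libraries. Of 298 bins of 10 Mb with at least 5 tested protein-coding genes, the first 2 bins of chromosome 18 had the lowest medians, −0.34 and −0.32, followed by 4 bins of 3q, from 140, 130, 150 and 120 Mb on. The median log2 change was −0.10 over the 149 tested protein-coding genes of chromosome 18, 0.11 over the 663 of chromosome 11 and 0.16 over the 186 of distal chromosome 17q. By DAB2IP O/E library, the median difference from the empty vector mean was −0.12, −0.08 and −0.10 on chromosome 18, 0.12, 0.08 and 0.09 on chromosome 11 and 0.23, 0.12 and 0.17 on distal 17q. The first library had the largest and the second the smallest difference in each, as in the central run of 3q. On the short arm of chromosome 3 the differences were −0.01, −0.02 and −0.03. These regions share their libraries with 3q, and no difference between them was tested.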

How the data were processed

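The deposited data were FPKM for every gene in each library, and the authors' comparison of the groups. Per the file headers the comparison gives the mean normalised count (a signal never below 0), log2 fold changes and their errors, the test's score, and p-values before and after adjustment, under DESeq2's column names. The deposited log2 fold change runs the other way, the empty vector on top (checked against the FPKM), and was turned. The builds GRCh38.p5 and hg19, and the tools R 3.3.1, DESeq2 1.12.4, Bowtie, TopHat2 2.1.1 and Trimmomatic 0.32, are listed, with no roles, per the submitters' processing notes. How reads were counted, on which annotation and strand, is not given in the sources used here. Of the 458 members, 410 had the same identifier version in GENCODE release 29, all 410 with the same coordinates, so positions are in GRCh38.

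FPKM times the authors' mean normalised count over the mean FPKM gave whole multiples of a step in each library (100% of values above 0, tolerance 0.01 reads), so whole reads were recovered. No library was a duplicate (chi-square over its degrees of freedom at least 3.61 for every pair). Log2(FPKM + 1) of the 14761 genes averaging 1 FPKM or more was fitted with limma 3.58.1 in R 4.3.3 (trend, no covariate, Benjamini-Hochberg over all genes tested, threshold 0.05), tested on simulated data. The log2 scale with pseudocount 1 understates changes of weak genes. The run minimised the summed absolute deviation from 3 medians, with at least 10 genes in each part. The means and SDs are of FPKM without the pseudocount. Reads are not independent molecules.

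Members, lists and named genes were chosen with earlier results of these data known. Named genes were DAB2IP, the 12 most abundant of the run, the 6 largest rises and falls on the arm, the 3 genes on either side of each end, up to 4 of the most abundant members of each list, and 6 genes whatever their result, of which 2, TERC and ADIPOQ, are not analysed here. Others were named after their values were seen, to illustrate a list. Some genes that meet the rule are not reported here. List entries that lie off 3q were not used. Alternatives were other pseudocounts, filters and scalings, no trend, a replicate block, each library left out, other searches for the run, and limma-voom on the recovered reads and all gene types, the last 2 added after seeing the data.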

Additional observations from a re-analysis of the deposited data

How the results depend on the processing

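The 149 calls on 3q (127 lower, 22 higher) stayed between 134 and 171 under the other pseudocounts, filters and scalings and without a trend, and were 207 when the recovered reads were fitted with limma-voom, where 4499 of 19303 genes were called. With library medians set equal 151 were lower and 20 higher. Without a single library the count ran from 73 to 136. Within-run medians of the log2 change ran from −0.30 to −0.24 over these leave-outs and from −0.30 to −0.27 over the other fits, over 94 of the genes with a filter of 5 FPKM and 113 otherwise. The distal end of the run stayed at MECOM (169.08 Mb) with any 1 library left out, and lay at 160.49 Mb with no filter, with a filter of 5 FPKM and with limma-voom, and at 160.43 Mb with all gene types. The SD over the 3 DAB2IP O/E libraries was 9.55 Mb for this end and 10.7 Mb for the proximal one. The proximal end lay further from the centromere, at 134.07 Mb with limma-voom, 129.09 Mb with no filter and 128.88 Mb with all gene types. It moved to 113.44 Mb with a filter of 5 FPKM and to 97.82 Mb with the whole chromosome as the frame, and ran from 113.44 to 128.06 Mb over the leave-outs, the lowest being without the first DAB2IP O/E library. The cause was not tested. Least squares and at least 20 genes per part gave the same ends as the report. No gene named by the rule and called on all 6 libraries changed direction under any of these alternatives. Same-numbered libraries deviated together only weakly (correlations 0.12, 0.099 and 0.058), though each library correlated best with its own number. The labels do not say whether the numbers pair the libraries, and these values cannot settle it. With a replicate block 140 genes were called (119 lower, 21 higher), with the same ends and median, and of the 59 named genes tested 5 calls were lost (GOLIM4, NDUFB4, PODXL2, RNF7 and TFRC) and 1 gained (HES1). Depth limits weak genes most: ACTRT3 rests on 93 to 179 reads per library.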
